A study of Eutrema salsugineum with 41 samples.

Results

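The comparison described here sets the late generations of one transgenic lineage, AtCMT3-L2T5 and AtCMT3-L2T6, against its early generations, AtCMT3-L2T3 and AtCMT3-L2T4. The libraries were chosen by their labels, and each gene was set beside the same difference in a second lineage, AtCMT3-L1T5 against AtCMT3-L1T3 and AtCMT3-L1T4. These are 7 of the 10 RNA-seq libraries and of the 41 samples of the series. All 7 plants are Eutrema salsugineum of the Shandong background that carry genomic A. thaliana CMT3 under its own promoter. Both lineages were propagated from single seeds, so each goes back to a separate transformation event, and within a lineage a later plant descends from the earlier ones or their relatives. RNA came from cauline leaves of individual plants, with 1 plant per library, and the wild type and the plants of another lineage, AtCMT3-L3, are used only where stated.

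CMT3 is a plant DNA methyltransferase that maintains methylation of cytosines in the CHG context, where H is any base but G, and binds histone H3 that carries methyl groups on lysine 9. E. salsugineum lacks CMT3 and also lacks gene body methylation (gbM), the CG methylation found within transcribed genes of many flowering plants. Genes that gained CHG methylation after AtCMT3 was introduced are called CHG-gain genes. The question of the comparison is what else differs in the leaf transcriptome between the early plants of L2 and the late ones, which had less AtCMT3.

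Values are given as TPM, transcripts per 1000000, after every library was scaled to that total. Differences are on the scale of log2(TPM + 1), late minus early, which understates the difference of genes with low values. The 5 libraries of wild type and of the T3 and T4 plants were deposited in FPKM and sum to between 676021 and 695872, whereas the libraries of L1T5, L2T5, L2T6 and L3 were deposited in TPM. The study's read numbers also place the 2 sets of libraries apart in depth. Unit and depth therefore separate the early from the late plants of L2 fully, and their part in a difference cannot be told apart from that of generation within L2. The L1 difference carries the same change of unit and depth, which is why it stands beside each result. Of the 26352 genes listed, 17580 had a mean of at least 1 TPM over the 7 libraries and were tested. Each library had between 19270 and 20122 genes above 0, and the reads behind a single value are unknown. PSBS, a photosystem II protein of green tissue, was between 712 and 1640 TPM in the 7 plants. In whole leaves, fewer cells of a type and less RNA per cell cannot be told apart.

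AtCMT3 itself was at 159 TPM in L2T3 and 190 TPM in L2T4, and at 62.7 TPM in L2T5 and 5.39 TPM in L2T6. Both late plants lay below both early plants, and the late plants differed more from each other than the early plants did. In L1 the transcript was at 77.2 TPM in T3, 64.5 TPM in T4 and 97.8 TPM in T5, so that the late L1 plant was above both early ones. Wild type was at 0.225 TPM. The L2 difference was -3.11 ± 1.05 (SE, n = 2 plants against 2), with an adjusted p of 0.892 in the limma fit over all genes. Without L2T6 the difference was -1.45, and without L2T5 it was -4.77.

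**Figure D1:**
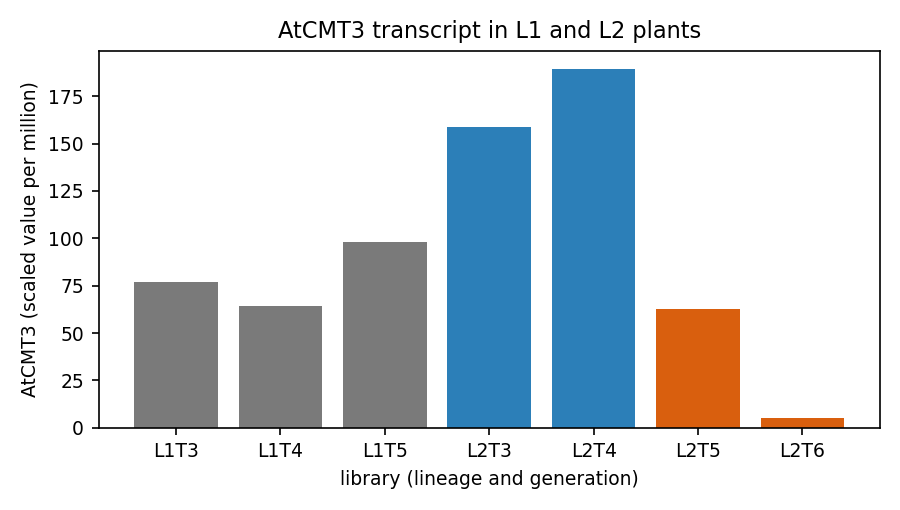
TPM of AtCMT3 in the 3 plants of L1 (grey), the early plants of L2 (blue) and the late plants of L2 (orange), with 1 bar per plant. L2T6 has the lowest bar at 5.39 TPM and L2T4 the highest at 190 TPM.

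Before any contrast was drawn, the libraries were compared in pairs, since the early plants of L2 were not alike. Between L2T3 and L2T4, 1075 of the 17580 genes differed by at least 2 on the log2 scale, or 6.11%. This is about the number between L2T3 and the late plants, which was 1064 for L2T5 and 1067 for L2T6. Between L2T4 and the late plants it was lower, 305 for L2T5 and 482 for L2T6, and between L2T5 and L2T6 it was 301. Across genes, the Pearson correlation of log2 levels was 0.858 between L2T3 and L2T4, and 0.947 between L2T4 and L2T5. Genes are not independent replicates, and these values are descriptions.

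The T3 plants of both lineages resembled each other, with 69 genes past 2 between L1T3 and L2T3, and so did the T4 plants, with 229 genes. L1T4 differed from L2T5 by 203 genes, fewer than the 738 genes between it and L1T5 of its own lineage. In both lineages alike, 661 genes were at least 2-fold higher in the T4 than in the T3 plants (3.76% of the genes tested) and 886 at least 2-fold lower (5.04%). Of the 661 genes, 615 (93.0%) had both late L2 plants at or above the higher T3 plant, as 21.3% of all tested genes had. Of the 886 genes, 813 (91.8%) had both at or below the lower T3 plant, as 40.8% of all tested genes had. Since the same T3 plants chose these genes, a share above that of all genes follows in part from the choice. All T3 and T4 libraries were deposited in the same unit. This set of genes was chosen after the libraries had been seen, and no test was run on it.

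**Figure D2:**
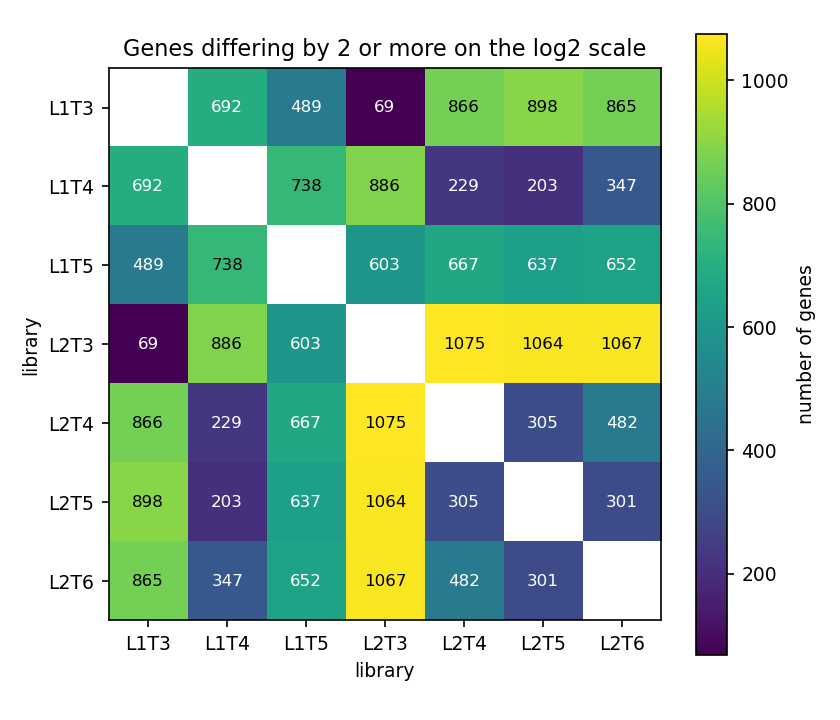
Number of genes, out of 17580, that differ by 2 or more in log2(TPM + 1) between each pair of the 7 libraries, by colour and figure in each cell. L2T3 stands apart from L2T4, L2T5 and L2T6 by 1064 to 1075 genes, and the lowest number is the 69 genes between L1T3 and L2T3.

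In the test of the L2 difference no gene passed. limma, with Benjamini-Hochberg adjustment over the 17580 genes, called 0 genes between late and early L2 at an adjusted p of 0.05, and the lowest adjusted p was 0.224. At an unadjusted p under 0.05 it counted 736 genes, or 4.19% of those tested. The same fit called 0 genes for L1 (687 at an unadjusted p under 0.05, or 3.91%, lowest adjusted p 0.418) and 0 genes for the difference between the L2 and the L1 change (582 at an unadjusted p under 0.05, or 3.31%, lowest adjusted p 0.980). An exact permutation test of 2 plants against 2 could not go below a two-sided p of 0.33, so none was run on single genes. No count test was run, since the files hold no counts. With no gene past the test, the genes that follow are described by their values, and a late value above or below an early one is not a call.

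The distance between the groups was described by separated genes, those whose lower late plant was at least 2-fold above the higher early plant on TPM + 1, or the reverse. There were 44 such genes with late higher (0.25% of the genes tested) and 245 with late lower (1.39%). The median L2 difference over all tested genes was -0.15, against -0.03 in L1, and with the medians of all libraries set equal the counts were 66 higher and 204 lower. With each library quantile normalized they were 65 and 179, and with the values as deposited 116 and 138. Leaving out L2T4 raised the number of separated genes from 289 to 2407, while leaving out L2T3, L2T5 or L2T6 gave 698, 774 and 694.

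The study's methods use a cutoff of 2 on log2 ratios without a pseudocount and with zeros removed. Applied to the difference of group means of log2(TPM + 1), it placed 66 genes at or above 2 (0.375%) and 260 at or below -2 (1.48%). With no pseudocount and genes at 0 in any of the 7 libraries left out, the counts were 111 and 359 of 17120 genes. With the values as deposited these were 128 and 150 genes. Without L2T4 the total went from 326 to 967 genes.

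In L1, where only 1 late plant has to lie apart, 430 genes were separated with T5 higher (2.45%) and 381 with T5 lower (2.17%). Of the 44 genes higher in late L2, 14 were also separated upward in L1, 2 downward and 28 not at all. Of the 245 genes lower in late L2, 44 were also separated downward in L1, 11 upward and 190 not at all. The median L1 difference was 0.63 over the former and -0.53 over the latter. Over all 10 libraries, 1 gene was at least 2-fold higher in every library deposited in TPM than in every library deposited in FPKM (0.00569%), and 11 were lower (0.0626%). All 12 are among the separated genes of L2 by construction, since the 10 libraries include the L2 plants.

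**Figure D3:**
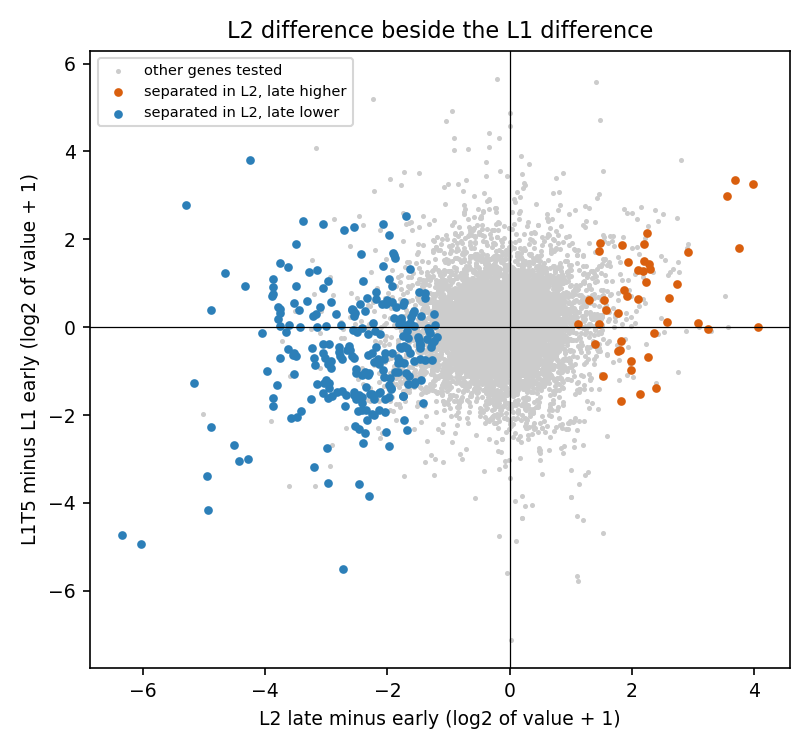
Difference of late and early L2 plants (horizontal) against the difference of L1T5 and the early L1 plants (vertical), both in log2(TPM + 1), with 1 point per tested gene. The 44 genes separated with late L2 higher are orange and the 245 with late L2 lower are blue. Both sets spread over positive and negative L1 differences, but 30 of the 44 and 159 of the 245 have the same sign in L1.

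Names and roles come from the A. thaliana orthologs that the study's supplement pairs with CHG-gain genes. The roles below are those known in A. thaliana. Every gene with a name is therefore itself a CHG-gain gene or a gene the study names, the ortholog table is held only in part, and the gene lists are samples of their pathways. Of the genes tested, 1711 have such an ortholog or are named by the study, and among the separated genes these are 5 of the 44 and 8 of the 245. With at least 10 TPM in the higher group, 3 remain with late higher and 5 with late lower, besides AtCMT3.

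Both SAUR genes in this set, which belong to a family of small proteins induced by auxin, were higher in the late L2 plants. SAUR61 (Thhalv10009068m) was at 1.55 TPM in L2T3, 7.33 TPM in L2T4, 26.0 TPM in L2T5 and 26.9 TPM in L2T6. The L1 plants had 1.35, 8.01 and 3.98 TPM in T3, T4 and T5, and T5 lay between the early plants. The L2 difference was 2.57 ± 0.83 (SE) with an adjusted p of 0.892 in limma, and the T4 plant of each lineage was above the T3 plant.

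SAUR64 (Thhalv10009028m) was at 6.08 and 20.5 TPM in the early and at 49.6 and 54.5 TPM in the late L2 plants. In L1 it was at 3.45, 16.6 and 20.9 TPM, so T5 was above both early plants there as well. HB54 (Thhalv10008672m), a homeodomain leucine zipper transcription factor, was at 19.1 and 30.4 TPM in early L2 and at 91.5 and 81.6 TPM in late L2. L1T5 was at 27.3 TPM, between 24.01 TPM in L1T3 and 64.8 TPM in L1T4.

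JAZ1 (Thhalv10008419m) had the lowest L2 difference among the separated genes with an ortholog and at least 10 TPM. It encodes a repressor of jasmonate signalling that is itself induced by jasmonate. It was at 205 TPM in L2T3, 76.0 TPM in L2T4, 10.01 TPM in L2T5 and 7.93 TPM in L2T6. The L1 plants were at 262, 30.3 and 83.1 TPM, with T5 between the early plants. The L2 difference was -3.67 ± 1.07 (SE), at an adjusted p of 0.892 in limma.

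TSA1 (Thhalv10011252m), which encodes a protein that binds the chromatin protein TONSOKU, was at 121 and 111 TPM in the early and at 42.6 and 11.6 TPM in the late L2 plants. L1T5 was at 92.0 TPM, between 145 TPM in T3 and 71.7 TPM in T4. The subtilisin-like protease SBT3.5 (Thhalv10006855m) was at 50.9 and 29.8 TPM in early and at 13.6 and 8.93 TPM in late L2. In L1 it was at 33.3, 32.7 and 49.9 TPM, so the late L1 plant was above both early ones. The difference between the lineages was -2.31 ± 0.53 (SE), with an unadjusted p of 0.00665 and an adjusted p of 0.980 in limma.

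CYSD1 (Thhalv10021151m), a cysteine synthase, was at 32.7 and 34.4 TPM in early and at 11.2 and 13.3 TPM in late L2, against 48.0, 18.3 and 51.3 TPM in L1. ARF6 (Thhalv10006747m), an auxin response factor that acts in flower maturation, was at 32.0 and 26.7 TPM in early and at 11.8 and 12.8 TPM in late L2. In L1 it was at 26.6, 20.6 and 20.1 TPM. Its L2 difference was -1.19 ± 0.22 (SE) at an adjusted p of 0.840 in limma, the lowest adjusted p among the named genes with an ortholog.

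**Figure D4:**
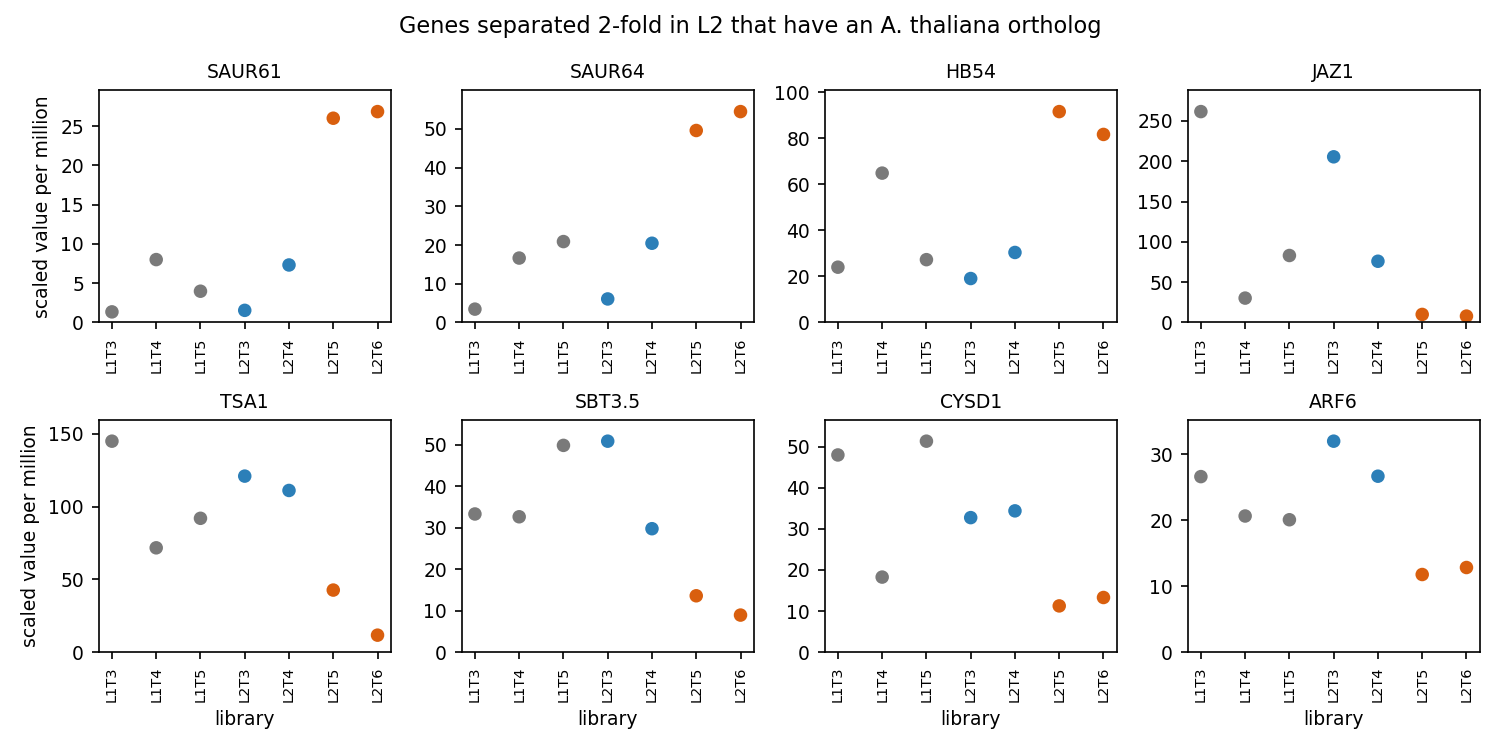
TPM in each of the 7 libraries of the 8 separated genes with an A. thaliana ortholog and at least 10 TPM in the higher L2 group, with 1 point per plant (L1 grey, early L2 blue, late L2 orange) and each vertical axis from 0. For all 8 genes the late L2 points lie beyond all L1 points, above them for SAUR61, SAUR64 and HB54 and below them for the others.

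No gene with an ortholog was separated in the same direction in L2 and L1 with late higher or with late lower. Of the genes with no annotation, Thhalv10005530m was listed at 0 in L2T3, L2T4 and the 3 L1 plants and at 11.9 TPM in L2T5 and 20.8 TPM in L2T6. Thhalv10017838m was listed at 0 in the 4 early plants of both lineages, at 16.4 and 13.3 TPM in the late L2 plants and at 8.63 TPM in L1T5, whereas wild type, deposited in FPKM, was at 4.35 TPM. Thhalv10000348m was at 403 and 1224 TPM in early L2 and at 38.7 and 0.891 TPM in late L2, and in L1 at 1276, 173 and 16.7 TPM. Thhalv10019095m was at 20.8 and 195 TPM in early L2 and listed at 0 in late L2 and in L1T5, beside 173 and 4.37 TPM in the early L1 plants. For the last pair the late plants of both lineages were below the early plants, and both belong to the 11 genes lower in every library deposited in TPM.

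The annotated genes with the lowest p for the difference between the lineages mostly differed more in L1 than in L2. ERD7 (Thhalv10022685m), a gene induced by dehydration, had the lowest, with 84.4 and 72.8 TPM in early and 46.5 and 43.9 TPM in late L2. In L1 it was at 70.8 and 64.7 TPM in the early plants and at 7.52 TPM in T5. The late plants were lower in both lineages, and the difference between the lineages was 2.23 ± 0.32 (SE, unadjusted p = 0.000698 and adjusted p = 0.980 in limma).

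The galactosidase gene BGAL8 (Thhalv10016234m) was between 24.8 and 33.0 TPM in the 4 L2 plants and went from 18.7 and 19.6 TPM in early L1 to 49.7 TPM in L1T5. BCA6 (Thhalv10023626m), a carbonic anhydrase gene, was between 101 and 135 TPM in L2 and at 44.0 TPM in L1T5, with 76.7 and 117 TPM before it. The others with a higher difference in L2 than in L1 were the orthologs of AT2G04690, AT1G13910 and AT3G13800, and those with a lower one were the orthologs of AT3G08980 and AT1G20070, at unadjusted p between 0.00994 and 0.0234 and adjusted p of 0.980.

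Gene lists were described by their members' values and by how many members had both late L2 plants below, or above, both early ones. Over all tested genes these were 27.8% with late lower and 6.76% with late higher, without any minimum distance. The clearest list by these counts was the cytosolic ribosome, the machinery of protein synthesis outside the organelles. All 11 of its tested members had late L2 below early L2, with differences between -1.10 and -0.61 and a median of -0.92, beside -0.15 over all genes. In L1 all 11 differences were positive, between 0.12 and 1.11, and over all tested genes 8191 of 17580 were positive. There 5 of the 11 members had T5 above both early plants, where 28.9% of all genes had. None of the 11 was separated by 2-fold in L2 and none passed the test, and the difference between lineages was not called for any (lowest unadjusted p 0.0607, adjusted p 0.980 in limma).

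The values of 3 members show the order of the plants. RPSaA, a protein of the small subunit, was at 385 TPM in L2T3, 252 TPM in L2T4, 142 TPM in L2T5 and 187 TPM in L2T6, and at 485, 271 and 457 TPM in L1. RPL10aB of the large subunit was at 268, 193, 101 and 152 TPM in L2 and at 325, 196 and 322 TPM in L1. RACK1A, a scaffold protein bound to the small subunit, was at 228, 134, 79.2 and 107 TPM in L2 and at 241, 144 and 214 TPM in L1. L2T5 had the lowest value in each of these, the T4 plants of both lineages lay below their T3 plants, and L1T5 was back near L1T3. Over the list the median level was 175 TPM in L2T3, 106 TPM in L2T4, 76.1 TPM in L2T5 and 93.2 TPM in L2T6, and 228, 113 and 186 TPM in L1. The median L2 difference stayed negative with the values as deposited (-0.38, where all genes were at 0.35) and after quantile normalization (-0.74), and it was -0.57 without L2T5.

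Protein folding in the endoplasmic reticulum had 7 tested members. Of these, 4 had late L2 below early L2, beside 27.8% of all tested genes, and none the reverse. In L1, T5 was below both early plants for 3 of the 7, beside 35.7% of all genes, and above both for none. OST3/6 was in both counts. It was at 33.4 and 26.3 TPM in early and at 16.6 and 23.0 TPM in late L2, and at 26.7, 23.0 and 22.0 TPM in L1. PDIL1-2, a protein disulfide isomerase, was at 113 and 60.3 TPM in early and at 36.0 and 35.0 TPM in late L2, against 96.1, 51.3 and 86.7 TPM in L1. The chaperone calreticulin (CRT) was at 150 and 109 TPM in early and at 76.2 and 90.8 TPM in late L2, and at 132, 82.1 and 115 TPM in L1. The median difference was -0.62 in L2 and 0.03 in L1. It was -0.39 without L2T3 and -0.08 with the values as deposited, where all genes were at 0.35.

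Of 11 tested genes of jasmonate, salicylate and defence, 6 had late L2 below early L2 and 1 above, and 1 (JAZ1) was separated, or 9.09% of the list beside 1.64% of all genes in either direction. JAZ3, another jasmonate repressor, was at 35.7 and 12.9 TPM in early and at 9.35 and 8.99 TPM in late L2. WRKY40, a transcription factor of the defence response, was at 16.9 and 5.43 TPM in early and at 3.51 and 1.59 TPM in late L2. In L1 both were lower in T4 than in T3, with 32.8, 12.8 and 16.3 TPM for JAZ3 and 15.3, 2.41 and 4.89 TPM for WRKY40. The gene with late L2 above early L2 was ICS1, which makes the precursor of salicylate, at 16.7 and 13.2 TPM against 17.0 and 22.5 TPM. The median of the list was -0.79 in L2 and -0.32 in L1. In L2, leaving out L2T3 gave -0.36 and leaving out L2T5 gave -0.35. The values as deposited gave -0.26 in L2, beside 0.35 for all genes.

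Genes of photosynthesis and photorespiration were the list with most members on the higher side, with 12 of 13 differences positive and 4 members with late L2 above early L2. Over all tested genes 5798 of 17580 L2 differences were positive. LQY1, which acts in repair of photosystem II, was at 122 and 117 TPM in early and at 152 and 155 TPM in late L2. STN7, the kinase of light harvesting proteins, was at 193 and 195 TPM in early and at 275 and 210 TPM in late L2, and at 149 TPM in L1T5. In L1, 8 of 13 differences were positive, and 4 members had T5 above both early plants, where 28.9% of all genes had. CHLD and LHCB7 had the late plants above the early ones in both lineages. LHCB7 was at 72.3 and 49.0 TPM in early L2 and at 76.7 and 73.7 TPM in late L2. In L1 it was at 73.0, 51.3 and 78.1 TPM. The median of the list was 0.31 in L2 and 0.05 in L1. The L2 median was 0.12 without L2T3, 0.14 without L2T5, and 0.85 with the values as deposited, beside 0.35 for all genes. In light signalling and the clock, 3 of 7 members had late L2 above early L2, beside 6.76% of all tested genes. Among them was the growth regulator HBI1 at 134 and 123 TPM against 173 and 310 TPM. The clock gene LNK3 overlapped, with 227 and 95.2 TPM in early and 159 and 172 TPM in late L2.

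The auxin list, in which ARF6 stands, had 4 of 8 members with late L2 below early L2, beside 27.8% of all tested genes. BIG, needed for auxin transport, was at 48.0 and 36.5 TPM against 23.7 and 22.2 TPM, and in L1 at 31.3, 34.9 and 23.0 TPM. For starch and sugar none of 7 members had groups that did not overlap in L2, and for some members the early plants lay far apart. LSF1, which acts in starch breakdown, was at 2.14 TPM in L2T3 and 49.0 TPM in L2T4, at 19.2 and 14.3 TPM in late L2, and at 2.17, 37.1 and 0.554 TPM in L1. AMY3, an amylase, had the same pattern, with 11.8 and 126 TPM in early L2, 83.4 and 63.7 TPM in late L2, and 19.0, 118 and 17.6 TPM in L1.

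In the cell cycle and DNA replication list no member of 13 had groups that did not overlap in L2. In L1, 7 of 13 had T5 above both early plants, beside 28.9% of all tested genes. PCNA1, the sliding clamp of DNA replication, was at 1.46 TPM in L2T3, 10.2 TPM in L2T4, 1.97 TPM in L2T5 and 0.733 TPM in L2T6, and at 0.766, 0.783 and 5.27 TPM in L1. L2T4 and L1T5 had the highest values.

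In the list of DNA methylation and small RNA, none of 13 members was separated. Its tested members are mostly genes of small RNA pathways and of RNA-directed DNA methylation. Late L2 lay below early L2 for 3 of the 13, beside 27.8% of all tested genes, and above for none. The differences ran from -1.44 to 0.70, with a median of -0.05 in L2 and -0.09 in L1. With the values as deposited the L2 median was 0.44, beside 0.35 for all genes. Among the L2 differences, those of 2 members mark the ends. The lowest was that of RDR5, an RNA-dependent RNA polymerase gene, at 0.645 and 5.26 TPM in early and 0.315 and 0.0693 TPM in late L2. The highest was that of FDM1, which acts in RNA-directed DNA methylation, at 8.28 and 39.4 TPM in early and 29.3 and 31.5 TPM in late L2. AGO1, which binds small RNAs, was at 107 and 123 TPM in early and at 121 and 112 TPM in late L2. NRPE1, the largest subunit of RNA polymerase V, was at 22.8 and 25.5 TPM against 20.4 and 17.6 TPM, and in L1 at 20.5, 20.4 and 19.2 TPM. DRM3, which takes part in RNA-directed DNA methylation, followed the split of T3 and T4, with 17.9 and 32.1 TPM in early L2, 27.5 and 30.5 TPM in late L2, and 14.2, 33.1 and 14.9 TPM in L1.

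Among histone modification and chromatin genes, 9 of 16 had late L2 below early L2, beside 27.8% of all tested genes, and none above. Their median was -0.26, beside -0.15 for all genes, and 0.22 with the values as deposited, beside 0.35 for all genes. MSI4, a WD40 protein of chromatin complexes, was at 57.8 and 58.5 TPM in early and at 38.3 and 36.96 TPM in late L2, and at 61.3, 56.8 and 52.6 TPM in L1. Of the IBM1-like genes, related to the H3K9 demethylase IBM1, Thhalv10023846m was at 12.2 and 13.0 TPM against 10.5 and 13.7 TPM, and Thhalv10029199m at 3.37 and 4.44 TPM against 3.34 and 3.05 TPM. Another, Thhalv10020080m, had a mean of 0.54 TPM over the 7 libraries and was not tested. TUB4, a tubulin gene that the study names, was at 76.7 and 76.2 TPM in early L2, 57.3 TPM in L2T5 and 171 TPM in L2T6, so the late plants lay on both sides of the early ones.

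Among genes of abscisic acid and drought, heat stress, and metal homeostasis no member was separated in L2. Of genes of abscisic acid and drought, 4 of 6 had late L2 below early L2, of heat stress and chaperones 3 of 10, and of metal homeostasis 1 of 4. The share over all tested genes was 27.8%, and the counts of the latter 2 lists are near it. The ortholog of AT1G06460, a member of the small heat shock protein family, was at 294 and 953 TPM in early and 979 and 530 TPM in late L2. SEP2, a floral organ identity gene and the only tested member of the list of markers of other organs, was separated with late L2 lower. It was at 3.505 and 2.75 TPM in early and at 0.608 and 0.0996 TPM in late L2. In L1 it was at 0, 0.283 and 1.85 TPM, and in the L3 plants at 8.92 and 47.5 TPM, so it was low in all 7 plants and at its highest outside them. The difference between the lineages was -2.96 ± 0.66 (SE, unadjusted p = 0.00569 and adjusted p = 0.980 in limma). The other 4 markers of the list, SHP2, PLT2, TEK and MYB26, were listed at 0 in all 7 plants, and the part of other tissue in the results was not tested.

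The CHG-gain lists had median L2 differences near that of all genes. Of 52 tested CHG-gain genes of AtCMT3-L2T6, 1 was separated, or 1.92% beside 1.64% of all genes, and the median difference was -0.04 in L2 and -0.20 in L1. The separated gene, Thhalv10021846m, was at 10.4 and 9.76 TPM in early and 31.5 and 52.8 TPM in late L2, and at 7.11, 13.4 and 16.8 TPM in L1. CHG-gain genes whose A. thaliana ortholog carries gbM had 2 of 696 separated, or 0.287%, and those with an unmethylated ortholog had 10 of 1008, or 0.992%, both shares below the 1.64% of all genes. Their medians were -0.14 and -0.15 in L2, beside -0.15 for all genes, and with the values as deposited 0.36 and 0.35, beside 0.35. These ortholog lists are held only in part, and the CHG-gain genes were chosen by the study in these plants.

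**Figure D5:**
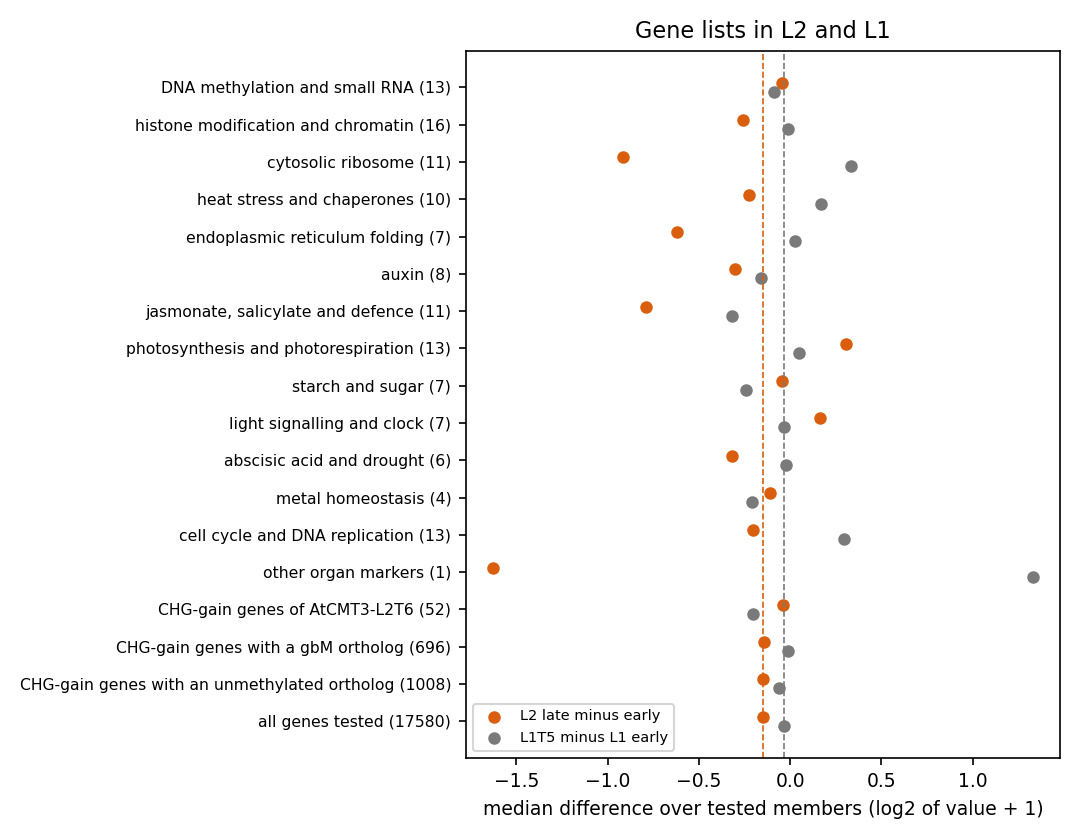
Median difference over the tested members of each gene list, in log2(TPM + 1), for late minus early L2 (orange) and L1T5 minus early L1 (grey), with the number of tested members in brackets and dashed lines at the medians of all tested genes. The cytosolic ribosome stands at -0.92 in L2 and 0.33 in L1.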

How the data were processed

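Per the labels and the study's methods, reads were trimmed with Trimmomatic, aligned to E. salsugineum v1.0 with HISAT2 and summarised with StringTie. The submitters' processing notes give HISAT2 2.1.0 and StringTie 1.3.3b, whereas the study's methods give an earlier version of HISAT2. The authors deposited 10 columns named FPKM, of which 5 deposited columns sum to 1000000 and hold TPM. All were scaled to that sum. The test had been planned for FPKM alone and was kept for the scaled values.

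limma 3.58.1 (trend and robust, R 4.3.3) was fitted to log2(value + 1) in 4 groups of 7 libraries, for genes with a mean of at least 1. Replicates are plants of different generations, so p-values also measure the spread between generations. Tables and figures used Python 3.11.15. The fit was checked on simulated data with 200 changed genes at the fitted spread. The changed genes were drawn only from genes with a mean of at least 10 TPM, so the shares found do not cover genes with lower values. Noise was drawn for each gene on its own, so differences shared by many genes, as between T3 and T4, were not simulated. limma found 38% of the changed genes at a log2 change of 2 and 93% at a change of 4, and called 3 and 22 unchanged genes. A call of 0 genes can therefore miss changes of that smaller size. The 2-fold separation also picked out 170 and 179 unchanged genes in these runs, beside 289 separated genes in the data. Members and lists were chosen with earlier results of these data known. Lists by RefSeq product could not be applied, since 0 of 26352 identifiers matched, and 143 A. thaliana orthologs, listed after the files had been opened, took their place.

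Named were AtCMT3, the genes the study names, annotated separated genes with at least 10 TPM (up to 12 per direction), up to 4 separated members per list or else the most abundant, the 5 annotated genes per direction with the lowest p between lineages, up to 3 annotated genes per direction separated alike in both lineages, and up to 2 unannotated genes per direction. Other list members were named after their values were seen. Alternatives were other scalings, pseudocounts, filters, fits, folds, cutoffs and leaving out each library.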

Additional observations from a re-analysis of the deposited data

How the results depend on the processing

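limma called 0 genes at an adjusted p of 0.05 under each alternative that was run: 14 for the L2 difference, 11 for the L1 difference and 17 for the difference between the lineages. The lowest adjusted p lay between 0.0687 and 0.977, between 0.101 and 0.685, and between 0.173 and 1 in turn. Unadjusted p under 0.05 was reached by 449 to 2111, 441 to 2005 and 288 to 2770 genes. The highest of these counts came with L2 minus L1 taken within each generation, T6 left out. In that fit T5 alone stands for the late plants, and the spread comes from T3 and T4 only, so its count is not comparable with the others.

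The number of separated genes was 289, and 618 at a fold of 1.5, 69 at a fold of 4 and 694 to 2407 with 1 plant left out, where fewer plants have to lie apart by construction. The number past a difference of 2 was 326, and 707 with a pseudocount of 0.1, 1490 at a cutoff of 1, 95 at a cutoff of 3 and 327 to 967 with 1 plant left out. With quantile normalization the latter split into 88 higher and 205 lower, beside 66 and 260. The AtCMT3 difference lay between -4.77 and -1.45.

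Among 36 named genes besides AtCMT3, no separated gene changed its direction under an alternative. Leaving out a plant, or another pseudocount, filter or fit, cannot turn such a gene, since its late plants all lie on the same side of its early plants. A scaling could do so only by shifting values by more than the 2-fold that separates such a gene. The unchanged directions therefore follow largely from how these genes were chosen. Several named genes that were not separated did change direction, among them TUB4 (-0.41 to 1.15) and LNK3 (-0.46 to 0.79). The labels give no replicate numbers, so the only pairing of the lineages is that by generation above. Depth per value is unknown, and 1 plant per generation leaves no spread within a generation.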
